A study of Mus musculus with 2 samples.

Results

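The proteins of the mitochondrial ribosome were followed through the cell cycle of mouse neural progenitors, using every gene of the expression table whose symbol starts with *Mrpl* or *Mrps* and a digit. There were 55 such genes among the 10666 genes of the table, out of 78 protein-coding genes with such symbols in the GENCODE vM21 annotation of GRCm38. *Mrpl12*, *Mrps18b* and *Mrps30* were not analysed here. By their textbook place, 36 members belong to the large subunit, among them *Mrps18a* in spite of its symbol, and 18 to the small subunit. *Mrps36* is now placed in the 2-oxoglutarate dehydrogenase complex of the citric acid cycle, so it serves as a mitochondrial protein outside the ribosome. A counterpart in bacterial ribosomes is known for 36 members, and the other 18 ribosomal members are specific to mitochondria.

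The single-cell RNA-seq libraries came from 2 replicate wild-type cultures of C57BL/6 neurospheres, free-floating balls of dividing neural stem and progenitor cells, started from the dorsal telencephalon at embryonic day 14.5. Both were grown with EGF and bFGF at 10 ng/ml each, with N2 and B27 supplements and without retinoic acid, and each library holds a whole culture of passaged cells rather than cells of 1 known animal. There was 1 condition, so no p-values are given. Each quantity is given per culture and compared with the spread between the cultures, and cells are not treated as replicates.

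The mitochondrial ribosome translates the few messenger RNAs made from mitochondrial DNA, which encode core subunits of the respiratory chain and of ATP synthase. Its ribosomal RNAs come from mitochondrial DNA, while every one of its proteins is encoded in the nucleus, translated in the cytosol and imported. A dividing cell has to double its mitochondria along with the rest of its contents, and proteins with a bacterial counterpart mostly sit in the conserved core of the particle.

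Culture 1 held 5748 cells with a median of 19477 UMIs (unique molecular identifiers, counts of captured RNA molecules) per cell, and culture 2 held 7057 cells with a median of 14637 UMIs. The cultures shared 48 cell barcodes. Each cell carries a deposited cell-cycle position between 0 and 2π, read from the expression of cell-cycle genes in the same cells. Cells within 0.25π of position 0 on either side were taken as G1/G0, cells from 0.5π to π as S, and cells from π to 1.5π as G2/M. The S genes *Mcm3*, *Mcm6* and *Pcna* peaked between 0.64π and 0.76π, *Pcna* at 0.76π and 0.74π in the respective cultures. Of the G2/M genes, *Ube2c* peaked at 1.31π and 1.24π and *Cenpf* at 1.28π and 1.18π. The third, *Top2a*, peaked at 1.03π and 0.95π, in culture 2 inside the S window. Its mean log2(value + 1) exceeded that of G1/G0 by 1.92 and 2.04 in S and by 2.16 and 2.08 in G2/M. The S and G2/M windows are therefore not sharply separated by this gene. Of the progenitor genes checked, *Nes* had a value above 0 in 93.3% and 89.8% of cells and *Pax6* in 21.1% and 23.1%. *Vim* was above 0 in 99.2% and 99.9% and *Fabp7* in 100% and 99.96%. Of the oligodendrocyte progenitor genes, *Olig2* was above 0 in 97.3% and 91.9% and *Pdgfra* in 8.77% and 1.81%. The neuronal gene *Dcx* was above 0 in 7.34% and 1.56% of cells, and the microglia, endothelium and red blood cell markers checked had no row in the table. Only 4 of 6 progenitor, 2 of 3 oligodendrocyte progenitor and 1 of 3 neuronal genes checked had a row. A missing row therefore does not show that a cell type is absent.

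The sequences shown, for some of the members that changed, are stretches of 30 bases around letters that resemble binding motifs of known regulators. The windows searched ran from 250 bases before to 50 bases after the RefSeq gene start. Only stretches with a match are shown. They are written 5′ to 3′ on the gene's strand, with the matching letters in capitals. The motifs were chosen after the members' values were seen, and both strands were searched. *Mrps6* and *Mrpl40*, whose changes are also given below, are not shown. Either they had no match to the motifs searched or no promoter was given for them.
Mrpl18, TTTNGCGC on the other strand: gtagaagaaagGCGCGAAAgtggaaaacgg
Mrpl14, NRF1 letters: aacccctggcGCGCAGGCGCagcgtgcggg
Mrps21, NRF1 letters on the other strand: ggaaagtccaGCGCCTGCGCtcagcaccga
Mrps12, CCAAT: ggaaagatctagCCAATcactaaggaggaa
Mrpl28, CCAAT on the other strand: gcgttgctgccaATTGGcagcgagcgaagg

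These RefSeq sequences are from GRCm38.p6. In the *Mrpl28* stretch CCAAT also stands on the gene's own strand, overlapping the capitals. The *Mrpl18* stretch lies at chr17:12916260-12916289 on the minus strand, the *Mrpl14* stretch at chr17:45686343-45686372 on the plus strand, the *Mrps21* stretch at chr3:95871586-95871615 on the minus strand, the *Mrps12* stretch at chr7:28741823-28741852 on the minus strand and the *Mrpl28* stretch at chr17:26123461-26123490 on the plus strand. In GENCODE vM21 the *Mrpl18* stretch lies in a 5′ exon of the gene and inside the *Tcp1* gene on the other strand, and the *Mrpl14* stretch lies in a 5′ exon that overlaps an exon of *Tmem63b* on the other strand. The *Mrps21* stretch overlaps exons of *C920021L13Rik*, and the other two overlap no annotated gene.

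A promoter was given for 47 of the 55 members. The letters TTTNGCGC, as bound by E2F factors that drive genes of DNA replication, occurred in 1.6% of all 27025 promoters and in 1 of the 47 members (2.1%), *Mrpl18*. The letters GCGCA, then any base, then GCGC, as bound by NRF1, a regulator of nuclear genes for mitochondria, occurred in 5.2% of all promoters and in 8 of the 47 (17.0%), among them *Mrpl14*, *Mrps21* and *Mrpl30*. The letters CCGGAAG, as bound by ETS factors such as GABP, occurred in 9.9% of all promoters and in 16 of the 47 (34.0%). CCAAT was found in 41.1% of all promoters and in 18 of the 47 (38.3%), and TTTGAA, the core of the CHR element of many G2/M genes, in 20.2% and in 8 of the 47 (17.0%). A match describes the letters of the window and is not a mapped binding site.

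The members were widely detected. The median member had a value above 0 in 78.8% of cells of culture 1 and 75.0% of culture 2, against 23.1% and 17.2% for the median gene of the table, and 45 members passed 50% in both cultures. Their median of mean log2(value + 1), where value is the deposited normalized expression, was 1.22 ± 0.04 (SD, n = 2 cultures). Together the members made up 0.964% of the summed values of the table in culture 1 and 0.999% in culture 2.

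*Mrpl42*, a mitochondria-specific protein of the large subunit, had the highest mean value, 6.52 and 6.58 in cultures 1 and 2. *Mrpl52*, also mitochondria-specific, followed at 4.87 and 5.32. In deposited units both stood apart from the members below them in both cultures. For neither could the worth of 1 UMI, given below, be read, so their levels are less certain. *Mrps33* had mean values of 4.25 and 4.54, *Mrpl30* 4.19 and 4.51, and *Mrpl20* 4.21 and 4.45, which lie closer to each other than the cultures do. *Mrpl30* and *Mrpl20* are counterparts of bacterial L30 and L20. *Mrpl18* had mean values of 3.97 and 4.05, *Mrps14* 3.73 and 3.75, and *Mrps24* 3.57 and 3.84. *Mrps6* had 3.25 and 4.12, the widest gap between cultures among the 10 highest members, and *Mrps36*, the citric acid cycle component, had 3.34 and 3.48. These are 3′ tag values, which need no correction for transcript length.

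At the other end, *Mrps27*, an RNA-binding protein of the pentatricopeptide repeat family, had a value above 0 in 33.8% and 21.8% of cells. *Mrpl44*, which has a ribonuclease III-like fold, was detected in 37.9% and 26.5%, *Mrps31* in 45.1% and 30.0% and *Mrpl1* in 40.5% and 30.3%. *Mrps9* was detected in 53.8% and 39.7%. In all 5 the deeper culture 1 had the higher share. *Mrpl10*, the base of the stalk that recruits translation factors and the partner of Mrpl12, was at a mean value of 0.690 and 0.661, while *Mrpl58*, which is also a peptidyl-tRNA hydrolase that rescues stalled ribosomes, was at 2.60 and 2.58. Large and small subunit members had like medians of the mean value, 1.71 and 1.67 against 1.86 and 1.92.

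**Figure D1:**
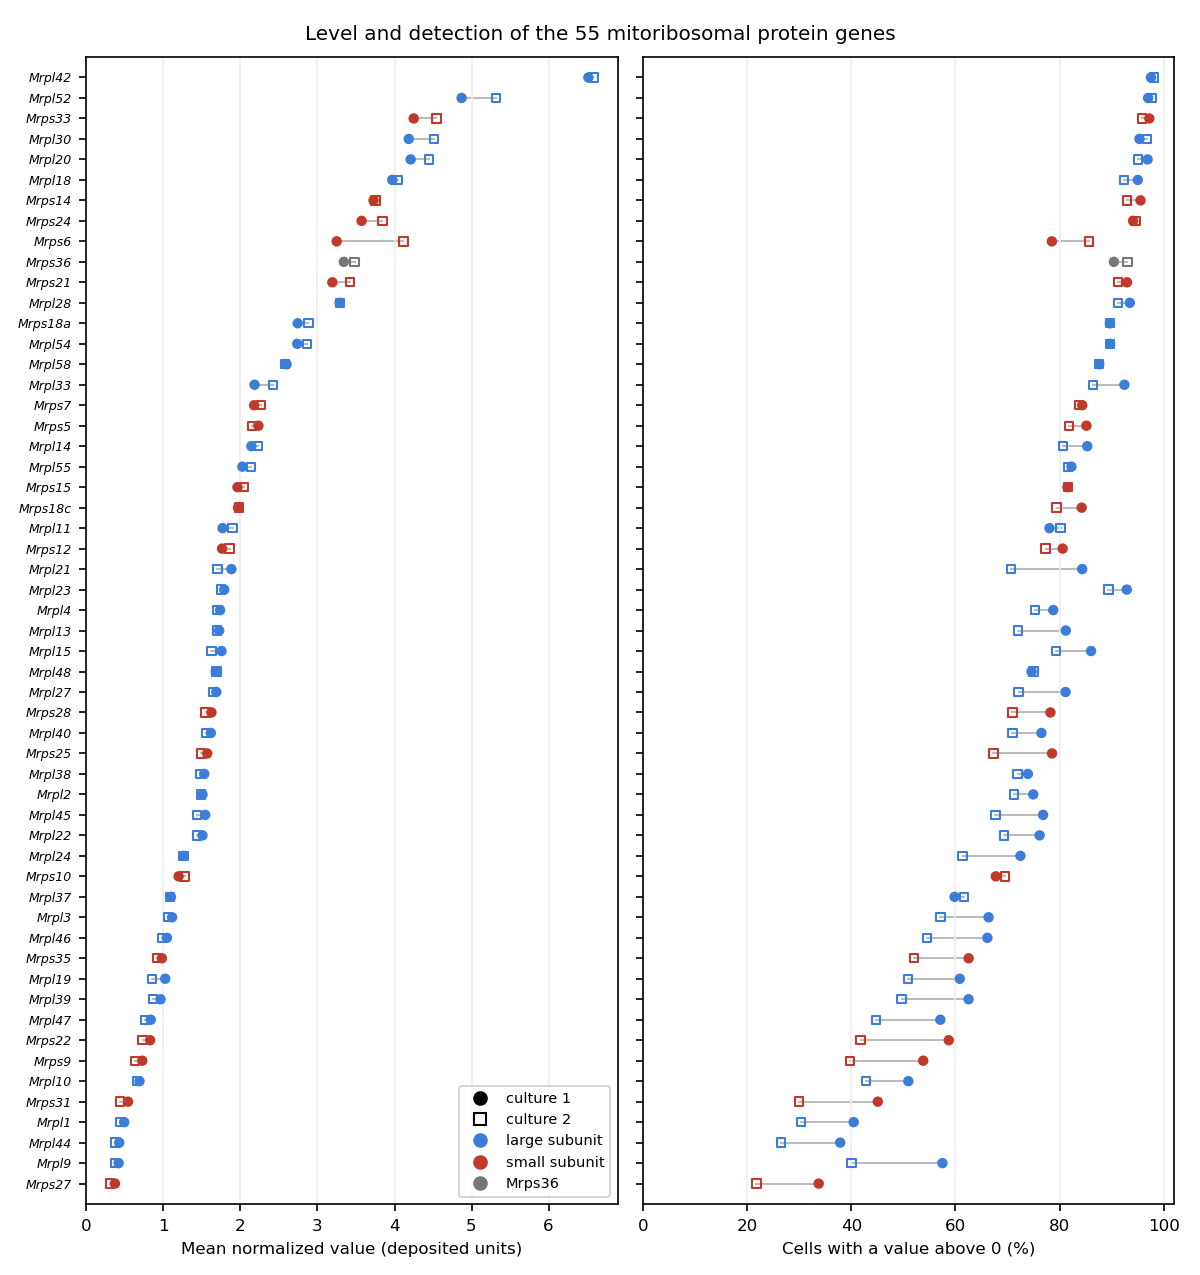
Mean deposited value (left) and share of cells with a value above 0 (right) of each of the 55 members, ordered by mean value, with filled circles for culture 1 and open squares for culture 2. *Mrpl42* stands at 6.52 and 6.58, and *Mrps27*, at the bottom, is detected in 33.8% and 21.8% of cells.

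The worth of 1 UMI in the deposited values was not the same in both cultures, nor in all members, and this bears on any comparison of levels. For 47 members it could be read from the steps between low values. It ran from 0.26 lower in culture 1 than in culture 2, on the log2 scale (-0.26), to 0.46 higher, the latter for *Mrpl37*, where 1 UMI was worth 1.21 in culture 1 and 0.881 in culture 2. The median size of the log2 ratio of mean values between cultures was 0.0711 as deposited and 0.169 in units of 1 UMI. The closeness of the cultures' mean values is therefore not an independent measure of reproducibility. The order of members close in mean value is not firm either: in G1/G0 of culture 1 *Mrps14* had about 10330 UMIs and *Mrpl30* about 9757, although the mean value of *Mrpl30* was the higher. For the 47 members with a worth of 1 UMI, a comparison of cells within 1 culture for 1 gene keeps the same scale. For the other 8 members fewer than 60% of values lay within 0.1 of whole steps in at least 1 culture, for *Mrpl42* 14.4% in culture 1. Their levels are less certain, and whether their scale holds within a culture was not seen. The 8 are *Mrpl42*, *Mrpl52*, *Mrpl20*, *Mrps6*, *Mrpl33*, *Mrpl15*, *Mrpl23* and *Mrpl9*.

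In most members the position accounted for little of the variance between cells, which does not show that their means were constant. A periodic loess line of log2(value + 1) along the position accounted for at least 0.05 of the variance between cells (R²) in both cultures for 2 of the 55 members (3.64%), against 3.9% of all genes in the table. The median R² of the members was 0.00353 and 0.00199, and that of all genes 0.00273 and 0.00205. The members are more highly expressed than most genes, and of the 4254 genes within the members' range of mean values 5.85% passed. The 2 members were *Mrpl18* and *Mrpl14*, both in the large subunit and both on chromosome 17.

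*Mrpl18* (ENSMUSG00000057388, chr17:12911349-12916345, minus strand) is the counterpart of bacterial L18, a protein of the central protuberance of the large subunit. Its mean log2(value + 1) was 1.83 in G1/G0, 2.46 in S and 2.29 in G2/M in culture 1, and 1.88, 2.65 and 2.35 in culture 2. S cells were thus highest and G1/G0 cells lowest in both cultures, and every S and G2/M mean lay above both G1/G0 means. The S difference was 0.70 ± 0.10 (SD, n = 2) and the G2/M difference 0.46 ± 0.01. On the linear scale the mean value was 3.06 in G1/G0 and 4.98 in S in culture 1, and 3.29 and 5.85 in culture 2. The line peaked at 0.80π and 0.75π, near the S gene *Pcna*, with a lowest point at 1.67π in culture 1 and within 0.1π of that in culture 2, and a height of 0.77 and 0.85 between them. R² was 0.143 and 0.131, and by the lower R² of both cultures *Mrpl18* ranked 192nd among the 10666 genes.

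*Mrpl14* (ENSMUSG00000023939, chr17:45686322-45698495, plus strand) is the counterpart of bacterial L14, which lies on the face of the large subunit that meets the small subunit. Its mean log2(value + 1) was 1.24 in G1/G0, 1.69 in S and 1.54 in G2/M in culture 1, and 1.26, 1.82 and 1.68 in culture 2. The order of the windows was that of *Mrpl18*, and again no S or G2/M mean reached down to a G1/G0 mean. The differences were 0.50 ± 0.08 in S and 0.36 ± 0.09 in G2/M (n = 2). R² was 0.0624 and 0.0775, with peaks at 0.79π and 0.81π. The share of cells with a value above 0 was 78.3% in G1/G0 and 92.2% in S in culture 1, and 74.5% and 91.3% in culture 2.

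Both genes have exons that overlap a neighbour on the other strand, and whether reads were counted by strand is not given in the sources used here. *Tcp1*, a chaperonin subunit gene that overlaps *Mrpl18*, differed by 0.23 and 0.07 in S and by 0.36 and 0.18 in G2/M, with its peak at 1.3π and 1.42π. *Tmem63b*, which overlaps *Mrpl14*, was lower in S by -0.25 and -0.18. The part of the neighbours' reads in the values of *Mrpl18* and *Mrpl14* was not tested. In all, 22 members have exons that overlap another gene, 5 of them on the same strand, including *Mrps6* with *Slc5a3*, an inositol transporter gene.

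**Figure D2:**
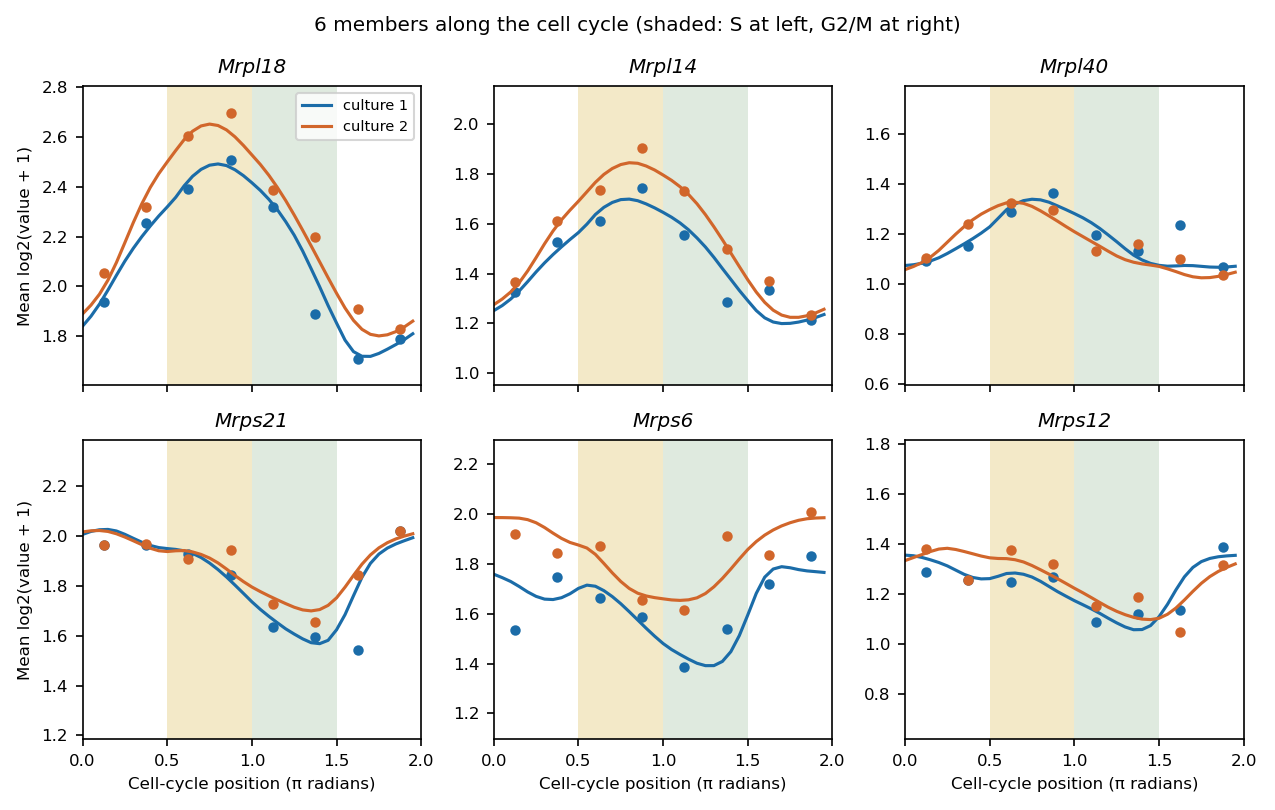
Mean log2(value + 1) along the cell-cycle position in units of π for 6 members, with loess lines and the means of 8 position classes (points) in culture 1 (blue) and culture 2 (orange), and with S shaded at left and G2/M at right. All panels span 1.2 units. The lines of *Mrpl18* and *Mrpl14* peak between 0.75π and 0.81π, while the loess lines of *Mrps21*, *Mrps6* and *Mrps12* are lowest between 1.10π and 1.44π.

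In S against G1/G0, 11 of the 55 members rose by at least 0.05 in mean log2(value + 1) in both cultures (20%, against 17.6% of all genes), and 11 fell (20%, against 9.04%). Among the 4254 genes of like mean value 30.6% rose and 18.0% fell. The median difference over the members was -0.01 in both cultures, and over all genes 0.00. The rises were led by *Mrpl18*, *Mrpl14* and *Mrpl40*, and the falls by *Mrps6* and *Mrpl24*. S cells had more UMIs than G1/G0 cells, with medians of 21945 against 18308 UMIs in culture 1 and 16334 against 14105 in culture 2. With only cells between the quartiles of total UMIs of their culture (middle depth), 4 members rose and 21 fell, against 15.9% and 11.5% of all genes. The 4 were *Mrpl18*, *Mrpl14*, *Mrpl40* and *Mrps18c*, and 10 of the 11 that fell with all cells were among the 21. As log2 ratios of mean values of at least 0.2, 3 members rose (5.45%, against 21.1%) and 3 fell (5.45%, against 19.9%). Low genes pass this ratio more readily. The share among genes of like mean value was computed neither for cells of middle depth nor for the log2 ratios.

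*Mrpl40* (chr16:18872018-18876862, minus strand), a mitochondria-specific protein of the large subunit, came next after these in the size of its rise. Its mean log2(value + 1) was 1.07 in G1/G0 and 1.33 in S in culture 1, and 1.05 and 1.31 in culture 2, a difference of 0.26 ± 0.00 (n = 2). Both S means lay well above both G1/G0 means. In G2/M it was back at 1.19 and 1.14, and the line peaked at 0.76π and 0.64π. *Mrpl40* was the only mitochondria-specific member among the 11 that rose in S, the other 10 having a bacterial counterpart. Of all 55 members, 18 are mitochondria-specific and 36 have a bacterial counterpart.

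*Mrpl28* (chr17:26123500-26126613, plus strand), the counterpart of bacterial L28, differed by 0.09 and 0.18 in S. *Mrpl13*, the counterpart of bacterial L13, differed by 0.10 and 0.15, and *Mrps18c*, one of the mammalian paralogs of bacterial S18, by 0.10 and 0.14. The others that rose were *Mrpl33*, *Mrps24*, *Mrps15*, *Mrpl15* and *Mrps9*, each by less than 0.11 in both cultures. *Mtbp*, whose exons overlap those of *Mrpl13* on the other strand, also differed by 0.11 and 0.10 in S, though it was above 0 in only 14.9% and 5.55% of cells.

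Among the falls in S, *Mrps6* was at 1.752 in G1/G0 and 1.62 in S in culture 1, and at 1.99 and 1.76 in culture 2. *Mrpl24*, the counterpart of bacterial L24, was at 1.06 and 0.92, and at 0.95 and 0.83. For *Mrps6* the shift within each culture was smaller than the gap between the cultures' G1/G0 means, whereas both S means of *Mrpl24* lay below both of its G1/G0 means. *Mrpl30* differed by -0.12 and -0.10, *Mrps21* by -0.13 and -0.08, and *Mrpl52* by -0.14 and -0.06. *Mrps33*, *Mrpl22*, *Mrpl27*, *Mrps36*, *Mrpl45* and *Mrpl38* also fell. *Mrpl45* is the member that tethers the ribosome to the inner membrane. By subunit the counts were 7 rises and 7 falls of 36 large subunit members, and 4 rises and 3 falls of 18 small subunit members.

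In G2/M against G1/G0 the falls outnumbered the rises. 17 members fell by at least 0.05 in both cultures (30.9%, against 11.2% of all genes), and 6 rose (10.9%, against 15.4%). Among genes of like mean value 22.2% fell and 28.0% rose. The count of rises was limited by culture 2, since 15 members passed in culture 1 alone and 7 in culture 2 alone. As log2 ratios of at least 0.2, 7 fell (12.7%, against 25.1%) and 2 rose (3.64%, against 18.1%). With cells of middle depth only, 22 fell and 4 rose, against 13.8% and 13.6% of all genes, and *Mrpl13* and *Mrpl40* were no longer among the rises. For these cells and for the log2 ratios the share among genes of like mean value was again not computed. The median difference over the members was -0.02 in both cultures, and over all genes 0.00.

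*Mrps21* (chr3:95862634-95871519, minus strand), the counterpart of bacterial S21, fell through S into G2/M. Its mean log2(value + 1) was 2.004 in G1/G0, 1.88 in S and 1.63 in G2/M in culture 1, and 2.01, 1.93 and 1.71 in culture 2. The cultures nearly coincided in G1/G0, and both G2/M means lay below every S and G1/G0 mean. The G2/M difference was -0.33 ± 0.05 (n = 2), and the lowest point of the line was at 1.41π and 1.35π. Its R² of 0.0338 and 0.0175 was the next after *Mrpl14*, by the lower R² of both cultures.

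*Mrps6* (chr16:92058270-92112227, plus strand), the counterpart of bacterial S6, fell by as much. Its mean was 1.40 in G2/M against 1.752 in G1/G0 in culture 1, and 1.67 against 1.99 in culture 2, a difference of -0.33 ± 0.03. The G2/M mean of culture 2 stayed close below the G1/G0 mean of culture 1. *Slc5a3*, which overlaps it on the same strand, differed by -0.14 and -0.07, and the share of the *Mrps6* fall that could come from its reads was not tested. The share of cells with a value above 0 did not fall for *Mrps6* in culture 1, at 76.9% in G1/G0 and 78.2% in G2/M. The worth of 1 UMI could not be read for *Mrps6*, so its differences were not recomputed in those units.

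*Mrps12* (chr7:28739641-28741820, minus strand), the counterpart of bacterial S12 at the decoding centre, was 1.36 in G1/G0 and 1.09 in G2/M in culture 1, and 1.33 and 1.16 in culture 2. Both G2/M means lay below both G1/G0 means. The S difference of *Mrps12* was -0.10 in culture 1 and 0.02 in culture 2, so it fell late in the cycle and not jointly in S. *Mrps36* differed by -0.24 and -0.16 in G2/M, and *Mrpl38*, a mitochondria-specific protein of the central protuberance, by -0.19 and -0.14. *Mrps18a*, the S18 paralog of the large subunit, differed by -0.15 and -0.13 in G2/M, while its paralog *Mrps18c* differed by 0.13 and 0.09. The S18 paralogs thus moved in opposite directions in both cultures.

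The G2/M rises were *Mrpl18*, *Mrpl14*, *Mrpl28*, *Mrpl13*, *Mrps18c* and *Mrpl40*. *Mrpl28* was 1.87 in G1/G0 and 2.05 in G2/M in culture 1, and 1.83 and 2.01 in culture 2, a difference of 0.18 ± 0.01. It peaked later than *Mrpl18*, at 1.16π and 0.90π. *Mrpl13* differed by 0.10 and 0.16. 5 of the 6 were large subunit members, and 5 had a bacterial counterpart. Of all 55 members, 36 are in the large subunit and 36 have a bacterial counterpart. The 17 falls comprised 10 of the 36 large subunit members, 6 of the 18 small subunit members and *Mrps36*.

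**Figure D3:**
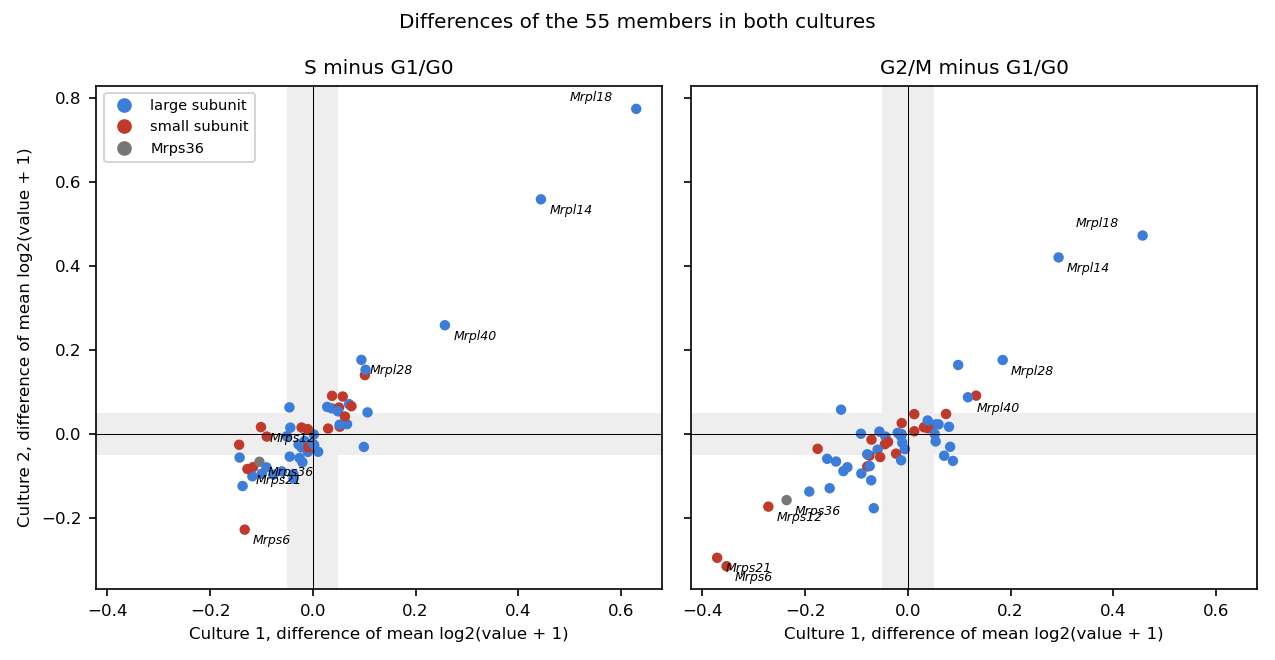
Difference of mean log2(value + 1) from G1/G0 in S (left) and G2/M (right) for the 55 members, culture 1 on the horizontal and culture 2 on the vertical axis, coloured by subunit, with grey bands between -0.05 and 0.05. *Mrpl18* and *Mrpl14* stand alone at upper right in both panels, and in G2/M *Mrps21*, *Mrps6* and *Mrps12* extend to the lower left.

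The stages that Seurat assigned, from a different gene list, gave the same picture for the leading members. *Mrpl18* had means of 1.82, 2.39 and 2.34 in the G1, S and G2M stages of culture 1, and 1.86, 2.51 and 2.36 in culture 2. *Mrps21* had 1.999, 1.90 and 1.69, and 2.01, 1.92 and 1.751. Both orders were those found with the position. The stages were called in the same cells, so they are not independent of the position.

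The summed value of the 55 members changed little. In 8 equal classes of the position, its class means spanned 95.6% to 103.6% of the overall mean of culture 1 and 95.8% to 101.1% of that of culture 2. The lowest class was π to 1.25π in both cultures, at 106.9 and 109.1 against culture means of 111.8 and 113.9. The range between classes was 6.70 ± 1.89 percentage points (n = 2). In log2 ratios of the summed value to G1/G0, S differed by -0.02 ± 0.03 and G2/M by -0.08 ± 0.02. The S difference was smaller than the spread between the cultures and the G2/M difference larger.

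Without *Mrpl18* and *Mrpl14* the range was 9.33 points. The G2/M ratio of the remaining 53 was -0.11 ± 0.02, and the S ratio -0.07 ± 0.02. With cells of middle depth only, the range over classes was 11.2 points as the mean of 2 unlike cultures. The classes spanned 92.0% to 107.1% of the mean in culture 1 and 94.0% to 101.2% in culture 2. In culture 1 the 2 classes that follow 1.25π then held 30 and 27 cells, and the class of 30 was the highest. The summed value of these cells was 119.5 in G1/G0 and 110.9 in S in culture 1, and 116.7 and 116.4 in culture 2. By subunit, the G2/M ratio was -0.03 ± 0.01 for the large subunit and -0.16 ± 0.03 for the small subunit, and the 2 cultures did not overlap between subunits. The large subunit sum includes *Mrpl18* and *Mrpl14* and the small subunit sum *Mrps21* and *Mrps6*. Neither sum was computed without them. These sums weight the members by level, and by median member the G2/M difference was -0.01 and -0.02 for the large subunit and -0.04 and -0.02 for the small subunit, with falls in 10 of 36 and 6 of 18. The small subunit sum in the class π to 1.25π was 92.0% of its mean in both cultures, against 97.9% and 98.1% for the large subunit.

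The products of the mitochondrial ribosome join subunits of the respiratory chain and ATP synthase that are encoded in the nucleus. Of 64 nuclear-encoded oxidative phosphorylation subunits, 59 fell and 0 rose in S by the same rule. In G2/M 60 fell and 1, *Atp5g2*, rose. Of all genes, 9.04% fell and 17.6% rose in S, and 11.2% fell and 15.4% rose in G2/M. As log2 ratios of at least 0.2, 20 of the 64 fell in S and 25 in G2/M, against 3 and 7 of the 55 members. The shares of falls over all genes were then 19.9% and 25.1%. The summed value of the 64 subunits had log2 ratios of -0.20 ± 0.05 in S and -0.23 ± 0.09 in G2/M. Their lowest class was also π to 1.25π, at 88.3% and 91.8% of the culture mean. They are far more highly expressed than the members, with median values of 8.79 and 8.97 against 1.74 and 1.69, and a fixed difference on the log2(value + 1) scale is a smaller relative change for them. Of 63 proteins of the cytosolic ribosome, 15 fell in S and 13 in G2/M, and 0 rose. With 2 cultures no difference between these lists was tested. The share among genes of like mean value was not computed for the oxidative phosphorylation and cytosolic lists.

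**Figure D4:**
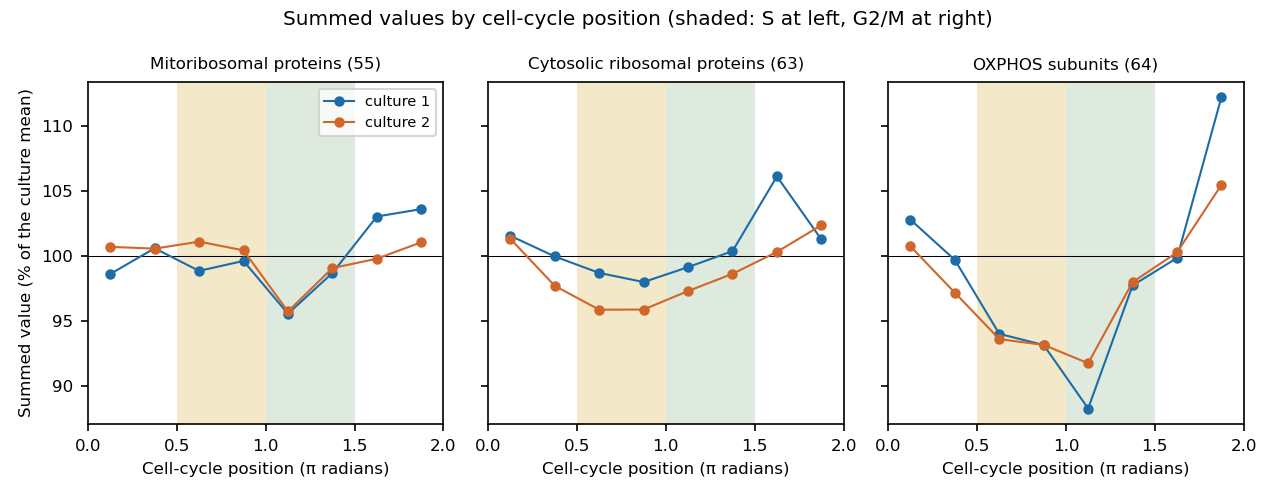
Summed value in 8 classes of the cell-cycle position as a percentage of the culture mean for the 55 members, 63 cytosolic ribosomal proteins and 64 oxidative phosphorylation (OXPHOS) subunits, in culture 1 (blue) and culture 2 (orange). The members dip to 95.6% and 95.8% at π to 1.25π, where the OXPHOS subunits reach 88.3% and 91.8%. In culture 1 the 2 classes that follow 1.25π hold 85 and 64 cells.

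Genes that make or serve the mitochondrial ribosome were mostly expressed at lower levels than its proteins. By the rule of 0.05, 17.6% of all genes rose and 9.04% fell in S, and 15.4% rose and 11.2% fell in G2/M. Among 4 mitoribosomal proteins under other symbols 1 rose and 0 fell in each window, namely *Ptcd3*, by 0.08 and 0.05 in S and by 0.09 and 0.07 in G2/M, while *Chchd1*, the highest of them at a mean value of 4.11 and 4.25, differed by 0.09 and 0.04 in S. Of 15 assembly factors, 1 rose (*Noa1*) and 1 fell (*Mpv17l2*) in S, and 0 rose and 2 fell in G2/M. The falls in G2/M were *Mpv17l2*, by -0.27 and -0.12, and *Rbfa*, a small subunit assembly factor, by -0.19 and -0.16. Of 11 translation factors 2 rose in S, *Tsfm* and *Gfm1*, *Mtif2* fell, and 0 passed the rule in G2/M. As log2 ratios of at least 0.2, which low genes pass more readily, 5 of these 11 fell in S and 3 in G2/M. Of the 15 assembly factors 2 rose and 4 fell in G2/M by this measure. Over all genes 19.9% fell in S, and 18.1% rose and 25.1% fell in G2/M. Of 8 genes for the upkeep and transcription of mitochondrial DNA, 1 rose and 1 fell in S, and 2 rose (*Tfam* and *Ssbp1*) and 1 fell (*Tefm*) in G2/M. *Tfam*, which packages that DNA, rose by 0.18 and 0.15 in S, with its peak at 0.74π and 0.67π, close to that of *Mrpl18*. *Tefm*, the elongation factor of mitochondrial transcription, fell by 0.06 in S in both cultures.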

How the data were processed

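Single-cell RNA-seq of 2 neurosphere cultures was analysed. Per the labels the libraries were made with a 10x Chromium 3′ kit of version 2, whereas the methods name version 3. By the submitters' processing notes the authors used alevin, Salmon 1.3.0 and Seurat 3.2.2 with GRCm38, and by the methods they removed rarely expressed genes and cells whose doublet score, UMI total, gene number or mitochondrial share was an outlier. No further doublet removal was done here. The authors deposited expression as a linear signal normalized by cell depth. For each cell they also deposited a total of estimated counts (UMIs), and other values such as the cell-cycle position and stages by several methods. The values could not be turned into whole reads for nearly all genes, so no count model was used. All per-sample columns were mapped, with 0 left over.

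Symbols were found for 10662 of 10666 genes in GENCODE vM21. The members and lists were chosen with earlier results of these data known. Values were transformed as log2(value + 1). Loess lines had degree 2 and a span of 0.3 of the tripled data and were read at 200 positions. A member was called higher or lower when its mean differed by at least 0.05 in the same direction in both cultures, and varying at an R² of at least 0.05 in both. All fits ran over the whole table with Python 3.11.15, numpy 2.4.6 and pandas 2.3.3. The S difference, the R² and the peak of the line were tried on simulated data. These were values of a subset of genes shuffled within each culture, with cycles planted in some. The G2/M differences, log2 ratios and sums were not tried in this way. The outcome of the trial, such as the share of shuffled genes that passed, is not given here. Figures used matplotlib 3.10.9. Depth limits most the members seen in few cells.

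The text names the 10 members of highest mean value, the 10 with the largest lower R², the 5 largest called differences in each direction of both comparisons, the 5 least detected, the S18 paralogs, *Mrpl10*, *Mrps36* and *Mrpl58*, exceptions among structural groups, and 2 to 4 genes of the other lists. Other members and overlapping neighbours were named after their values were seen. Alternatives were another pseudocount, linear ratios, a filter on detection (5% of cells), cells between the quartiles of depth, rescaled cells, other thresholds, spans, classes and stages, and each culture alone. Values in units of 1 UMI and the sum without *Mrpl18* and *Mrpl14* were added after the data were seen.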

Additional observations from a re-analysis of the deposited data

How the results depend on the processing

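Of the main values, 16 recomputations moved by over 1.5 times the count or 1 SD of the value. As log2 ratios the S counts were 3 rises and 3 falls and the G2/M counts 2 rises and 7 falls. With cells between the depth quartiles S had 4 rises and 21 falls, and the summed range was 11.2 points. At a threshold of 0.1 S had 5 rises and 3 falls, and G2/M 3 rises and 6 falls. With Seurat stages S had 5 rises. In single cultures the S rises were 16 in either, the S falls 15 to 16, the G2/M rises 7 to 15 and the G2/M falls 20 to 24, since agreement of both was no longer required; the summed range ran from 5.37 to 8.04 points. At an R² of at least 0.01, 6 members passed. Without *Mrpl18* and *Mrpl14* the summed range was 9.33 points. The median member level was 1.71 as a mean value, which is another scale. For the 8 members followed one by one, 34 recomputed differences moved by over 1 SD; a single culture cannot do so, and neither the threshold nor the detection filter changes a difference. 1 reversed, *Mrps12* in S, which was -0.10 without replicate 2 and 0.017 without replicate 1. No paired analysis was possible because there was only 1 group; the windows were compared within each culture throughout. The cause of the depth-related changes was not tested.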
